A study of Homo sapiens with 24 samples.

Results

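The genes described here are the 43 expressed genes that lie between 0.125 Mb and 2 Mb from GATA1 on the short arm of human chromosome X. They were chosen by position alone: the transcript start nearest to the GATA1 start (X chromosome, 48644982 on the plus strand of hg19, in the deposited gene models) had to fall in that window, and the mean level over all libraries had to be 1 CPM (counts scaled to a common library total) or more. The window held 100 gene symbols. Of these, 33 belonged to the cancer-testis families with symbols that start with GAGE, SSX or PAGE, or were PIM2 or SLC38A5, and were left out by name. A further 24 were below 1 CPM, the highest of them at 0.792 CPM. The 43 genes left are a small share of the 21925 gene entries in the count table, and 24 of them lie at lower coordinates than GATA1 and 19 at higher coordinates.

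The RNA came from K562, an established human erythroleukaemia line, that carried a doxycycline-inducible CRISPR interference system. In it a Cas9 that cannot cut DNA carries the KRAB repressor domain to the site named by a single guide RNA (sgRNA), here after 24 hours of induction. There were 6 libraries in which eHDAC6, a proposed GATA1 enhancer, was repressed (3 replicates each of eHDAC6-Guide2 and eHDAC6-Guide1), 6 with sgRNAs against the GATA1 transcription start site (GATA1TSS-Guide2 and GATA1TSS-Guide1), and 12 with 4 non-targeting sgRNAs (NC-Guide1 to NC-Guide4). All of these cultures, the controls included, were described as expressing an sgRNA in the induced system, and the series calls the replicates biological. The control for CRISPR interference itself, cells with no sgRNA, is not analysed here. K562 is a single line, so these libraries describe 1 cellular background.

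GATA1 is the zinc-finger transcription factor that drives erythroid and megakaryocyte genes, and it binds DNA at the letters AGATAA and close relatives of them. KRAB recruits a corepressor that lays down repressive histone marks, and such marks can spread from the bound site. The values below give the RNA levels of genes well beyond the immediate neighbours of GATA1 when the enhancer or the promoter was repressed, and set the size of each difference beside its distance. The genes themselves are a mixed group: ubiquitin enzymes, RNA-binding proteins, kinases, zinc-finger factors and proteins of membranes and synaptic vesicles.

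Promoters of 5 of these genes are shown, each as 250 bases before and 50 bases after the start, 5′ to 3′ on the strand of the gene, from RefSeq on GRCh38.p14. TFE3, ELK1, CCDC22 and MAGIX are shown because their levels differed in the comparisons reported here, and CFP because its promoter held the most matches to a GATA motif. Capitals mark the letters AGATAA or their variants with a G at the end (AGATAG), with a T at the start (TGATAA) or with both of these (TGATAG), on either strand. The TFE3 window is chrX:49043308-49043607 on the minus strand, the ELK1 window chrX:47650555-47650854 on the minus strand, the CCDC22 window chrX:49235220-49235519 on the plus strand, the MAGIX window chrX:49162593-49162892 on the plus strand and the CFP window chrX:47629881-47630180 on the minus strand.
TFE3: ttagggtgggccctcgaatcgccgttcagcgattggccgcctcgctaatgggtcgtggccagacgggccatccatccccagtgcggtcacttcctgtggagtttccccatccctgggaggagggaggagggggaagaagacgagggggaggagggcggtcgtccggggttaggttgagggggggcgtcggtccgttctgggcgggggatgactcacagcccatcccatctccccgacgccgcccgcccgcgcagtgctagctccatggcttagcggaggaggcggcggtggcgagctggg
ELK1: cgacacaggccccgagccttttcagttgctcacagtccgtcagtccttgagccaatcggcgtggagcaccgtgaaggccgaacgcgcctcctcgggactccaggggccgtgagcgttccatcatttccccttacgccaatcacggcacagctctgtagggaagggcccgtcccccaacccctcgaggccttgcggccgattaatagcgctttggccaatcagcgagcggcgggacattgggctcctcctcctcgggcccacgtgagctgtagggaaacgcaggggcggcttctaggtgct
CCDC22: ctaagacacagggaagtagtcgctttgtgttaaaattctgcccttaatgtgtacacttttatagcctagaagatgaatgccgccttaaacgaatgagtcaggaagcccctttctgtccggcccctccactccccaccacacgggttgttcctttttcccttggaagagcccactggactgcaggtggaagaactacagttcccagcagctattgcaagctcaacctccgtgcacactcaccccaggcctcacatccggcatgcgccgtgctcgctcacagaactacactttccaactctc
MAGIX: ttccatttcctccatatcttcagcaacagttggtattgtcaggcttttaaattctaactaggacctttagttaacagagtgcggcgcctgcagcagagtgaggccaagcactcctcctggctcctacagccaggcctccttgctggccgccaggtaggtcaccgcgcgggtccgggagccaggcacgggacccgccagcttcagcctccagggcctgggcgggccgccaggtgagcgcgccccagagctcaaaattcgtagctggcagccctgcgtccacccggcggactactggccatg
CFP: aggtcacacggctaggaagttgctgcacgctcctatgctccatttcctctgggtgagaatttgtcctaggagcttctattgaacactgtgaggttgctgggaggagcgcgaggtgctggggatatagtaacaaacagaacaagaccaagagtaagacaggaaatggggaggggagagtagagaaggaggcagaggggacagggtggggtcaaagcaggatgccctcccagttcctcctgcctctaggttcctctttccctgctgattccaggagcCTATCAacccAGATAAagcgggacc
A promoter entry matched 40 of the 43 genes (GPKOW, ZNF182 and USP27X-AS1 did not match), and 7 of the 40, or 17.5%, held at least 1 of the 4 motifs: CFP, EBP, FOXP3, RBM3, SYN1, WDR13 and ZNF81. Of all 35114 promoters of this length, 25% did so. The promoters of the locus genes held a median of 23 CpG dinucleotides, against 14 over all promoters, and a median GC content of 61.7%, against 58.7%. A match describes letters in a window and is not a site of binding, and the absence of capitals in 4 of the sequences says only that these letters are not in these 300 bases.

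Total counts per library ran from 4290343 to 23205811, and 13147 genes passed the filter on low counts, all 43 locus genes among them. Of the K562 markers, the globin genes HBG1, HBG2, HBE1, HBZ, HBA1 and HBA2 and the erythroid factor genes GATA1, TAL1 and KLF1 had means of 172 CPM or more, while no fibroblast or hepatocyte marker reached 1 CPM (highest 0.178 and 0.118). Of the T cell, monocyte and epithelial markers, CD3D, LYZ, EPCAM and KRT18 were above 1 CPM. GATA1 averaged 254 ± 8.72 CPM with eHDAC6 (SD, n = 6), 84.8 ± 37.1 CPM with GATA1TSS (n = 6) and 363 ± 28.9 CPM in NC (n = 12), and every targeted library was below every control library. The control libraries were not uniform. On the first principal component of the 12 controls, 8 of them scored 7.38 to 13.3, namely the replicates numbered 1 of each NC sgRNA together with the rest of NC-Guide1 and of NC-Guide2. The 4 that remained, from NC-Guide3 and NC-Guide4, scored -17.2 to -28.9. A list of integrated stress response genes summed to 1216 to 1926 CPM with eHDAC6 and 1183 to 1641 CPM with GATA1TSS, against 3733 to 5358 CPM in the 8 and 1723 to 2173 CPM in the 4. The globin list summed to 7444 to 10860 CPM with eHDAC6 and 7233 to 12960 CPM with GATA1TSS, against 13490 to 16900 CPM in the 8 and 8953 to 10130 CPM in the 4. Comparisons with NC were therefore made with all 12 controls and with the 4. A change from NC given without its set of controls is on all 12. The part of this split in a result was not tested. In bulk RNA, fewer cells of a kind and less RNA per cell cannot be told apart.

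The locus genes spanned a wide range of levels, from 1.36 to 455 CPM with a median of 30.7 CPM. Per kb of exon, TIMP1, the tissue inhibitor of metalloproteinases, was the highest at 496 CPM per kb, followed by EBP, a sterol isomerase of cholesterol synthesis, at 153 and NDUFB11, a subunit of respiratory complex I, at 130. The ubiquitin-activating enzyme gene UBA1 had 108 CPM per kb. The lowest were the retinal calcium channel gene CACNA1F at 0.243, the chloride transporter gene CLCN5 at 0.338 and FOXP3, the master factor of regulatory T cells, at 0.573 CPM per kb. SYN1, which encodes the synaptic vesicle protein synapsin I, held 5 to 37 more counts than TIMP1 in each of the 24 libraries, where TIMP1 itself had 1533 to 12188. TIMP1 lies inside the span of SYN1 on the opposite strand, so the SYN1 value is not an independent measurement and is not read as expression of SYN1. SYN1 is still counted among the 43 in the shares, medians and correlations below, where TIMP1 and SYN1 enter as separate genes. In the gene models the exons of SYN1 and TIMP1 do not overlap, yet the SYN1 counts follow those of TIMP1. For this pair, neither strand nor exon limits appear to have kept the counts apart. The exons of 11 of the 43 genes overlap those of a gene on the other strand. The values of these pairs, such as PLP2 with PRICKLE3, CCDC22 with FOXP3 and UXT with UXT-AS1, are uncertain to that extent. Other genes whose spans hold or touch another gene may be affected too. Values per kb of exon rest on exon lengths alone, and the sources used here do not describe the counting.

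Repression of eHDAC6 gave 11 locus genes higher and 4 lower than NC with all 12 controls, 15 of 43 or 34.9% (adjusted p under 0.05 by the quasi-likelihood test of edgeR with Benjamini-Hochberg correction over all genes). Over all genes tested 31.1% were called, and over the 524 tested genes of chromosome X more than 2 Mb away 30.9%. By direction, 25.6% of the locus genes were called higher (15.8% of all genes) and 9.3% lower (15.3% of all genes). The median log2 change was -0.01 in the locus and -0.01 over all genes tested. On the 4 controls these medians were 0.03 and -0.00. None of the 43 genes was called by edgeR when the 4 controls alone were used (1.49% of all genes tested, 2.32% of the distant genes of chromosome X). In that comparison 2 genes, PLP2 and CCDC22, had an unadjusted p under 0.05. The share of all genes under that p was not taken, so this count is not read as a difference.

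Repression of the GATA1 start gave 10 locus genes higher and 3 lower with all 12 controls, 13 of 43 or 30.2%, beside 27.2% of all genes tested and 27.3% of the distant genes of chromosome X. Higher calls were 23.3% of the locus genes and 13.5% of all genes, and lower calls 6.98% and 13.7%. The median log2 change was 0.03 in the locus and -0.00 over all genes. On the 4 controls these medians were 0.05 and 0.00. Against the 4 controls 4 genes were called, 2 higher (4.84% of all genes) and 2 lower (5.39% of all genes), which is 9.3% beside 10.2% of all genes tested and 9.67% of the distant genes. With both directions together, the shares called in the locus were near those elsewhere on 12 controls and, with GATA1TSS, on the 4. By direction on 12 controls, higher calls were a larger share of the locus genes and lower calls a smaller one with both elements, which share their controls, and no test was made of that difference. On the 4 controls the shares with GATA1TSS were 4.65% in each direction. With GATA1TSS the difference in the locus between 12 and 4 controls, 13 against 4 calls, went with a like difference over the genome.

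**Figure D1:**
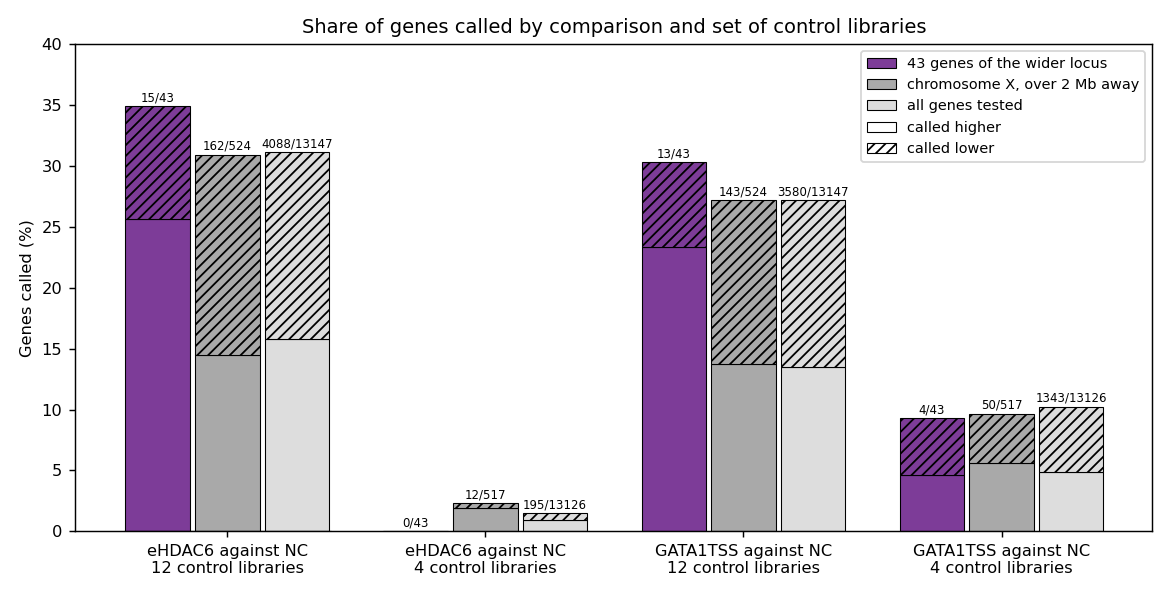
Share of genes called (percent, vertical axis, from 0) in 4 comparisons for the 43 locus genes, the genes of chromosome X over 2 Mb away and all genes tested. Plain bars are genes called higher and hatched bars genes called lower (adjusted p under 0.05), with the number called and tested on top. Whole bars stand near each other in the comparisons with 12 controls, where the plain share is larger and the hatched share smaller in the locus, and 0 of 43 locus genes were called with eHDAC6 against the 4 controls.

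TFE3 had the smallest p of the locus genes with GATA1TSS on 12 controls, and ELK1 on the 4. TFE3 encodes a helix-loop-helix transcription factor of the MiT family that drives lysosome and autophagy genes, and starts 256 kb from GATA1 (X chromosome, 48886238 to 48901043, minus strand, hg19). Its level was 96.8, 101 and 101 CPM in the 3 replicates of GATA1TSS-Guide2 and 88.7, 87.4 and 84.7 CPM in those of GATA1TSS-Guide1. The 12 NC libraries ran from 57.7 to 80.1 CPM with a median of 69.9, and the 4 among them from 75.9 to 80.1. All 6 GATA1TSS libraries were therefore above all 12 controls, and TFE3 was the 1 locus gene whose GATA1TSS and NC libraries did not overlap (1.79% of all genes tested). On the 4 controls 4 locus genes did not overlap, ZNF81, FTSJ1, TFE3 and CCDC22 (5.19% of all genes tested). The log2 change was 0.41 (SE 0.05, edgeR adjusted p = 1.86e-06), and 0.25 (SE 0.06, edgeR adjusted p = 0.0074) against the 4 controls. The call was kept in all 8 alternative fits and in all 24 fits that left out 1 library, with adjusted p at most 0.0282.

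With eHDAC6, TFE3 stood at 74.8, 86.8 and 82.0 CPM in the replicates of eHDAC6-Guide2 and at 76.4, 86.0 and 85.2 CPM in those of eHDAC6-Guide1. These values overlap the upper end of the controls. The log2 change was 0.22 (SE 0.05, edgeR adjusted p = 0.0025) with 12 controls and 0.07 (edgeR adjusted p = 0.654) with the 4. The direct difference of eHDAC6 from GATA1TSS was -0.18 (95% interval -0.31 to -0.06, edgeR adjusted p = 0.137), and that of GATA1TSS-Guide2 from GATA1TSS-Guide1 was 0.19 (95% interval 0.01 to 0.37, edgeR adjusted p = 0.243), neither past the threshold.

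ELK1, which encodes an ETS-domain factor that works with serum response factor at immediate early genes, lies 1135 kb away on the other side (X chromosome, 47494919 to 47510003, minus strand). It had 102, 101 and 112 CPM in GATA1TSS-Guide2 and 81.8, 101 and 87.4 CPM in GATA1TSS-Guide1. The NC libraries ran from 66.3 to 99.7 CPM with a median of 78.7. The GATA1TSS-Guide2 libraries were above every control, while those of GATA1TSS-Guide1 overlapped them. The log2 change was 0.29 (SE 0.07, edgeR adjusted p = 0.00381) with 12 controls and 0.40 (SE 0.07, edgeR adjusted p = 0.000452) with the 4. It lost the call without GATA1TSS-Guide2 (0.18, edgeR adjusted p = 0.217). With eHDAC6, ELK1 averaged 78.6 ± 3.91 CPM (SD, n = 6), against 79.8 ± 9.92 in NC (n = 12), and was not called. The difference of eHDAC6 from GATA1TSS, -0.31 (95% interval -0.48 to -0.14), had an edgeR adjusted p of 0.0592, and it was called lower with DESeq2, with no filter, without the 8 controls and without GATA1TSS-Guide1.

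CCDC22 was lower with both elements. Its protein is part of the COMMD complex that controls copper-dependent and endosomal protein traffic and NF-kappa-B turnover, and the gene starts 447 kb from GATA1 (X chromosome, 49091927 to 49106987, plus strand). It had 44.4, 35.7 and 46.4 CPM in eHDAC6-Guide2 and 48.8, 45.0 and 42.1 CPM in eHDAC6-Guide1. With the GATA1 start repressed it had 41.9, 33.2 and 41.4 CPM in GATA1TSS-Guide2 and 45.0, 47.1 and 44.3 CPM in GATA1TSS-Guide1. The NC libraries ran from 37.4 to 69.1 CPM with a median of 55.3, and all 12 targeted libraries were below all 4 of the other controls (50.3 to 55.9 CPM). The lowest control, NC-Guide2 replicate 1, fell among the targeted libraries. The log2 change with GATA1TSS was -0.38 (SE 0.07, edgeR adjusted p = 0.00033) with 12 controls and -0.31 (SE 0.08, edgeR adjusted p = 0.00959) with the 4. With eHDAC6 it was -0.34 (SE 0.07, edgeR adjusted p = 0.00132) with 12 controls and -0.27 (edgeR adjusted p = 0.079) with the 4. Both comparisons use the same controls. The overlapping antisense gene FOXP3 had 3 to 36 counts per library, where CCDC22 had 146 to 1003.

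MAGIX, a PDZ-domain gene 374 kb from GATA1 (X chromosome, 49019181 to 49024495, plus strand), was the 1 locus gene called between the sgRNAs of an element. It had 15.4, 10.0 and 12.5 CPM in GATA1TSS-Guide2 and 32.0, 18.9 and 32.2 CPM in GATA1TSS-Guide1. The libraries of these sgRNAs did not overlap, as for 9 of the 43 genes (25.7% of all genes tested), and the log2 difference of GATA1TSS-Guide2 from GATA1TSS-Guide1 was -1.08 (SE 0.23, edgeR adjusted p = 0.00854), where 3.48% of all genes tested were called (1.77% higher and 1.7% lower). GATA1 itself differed by -1.10 between them (edgeR adjusted p = 2.59e-06). The eHDAC6 libraries held MAGIX at 25.5 to 34.4 CPM, and it was called higher with eHDAC6 than with GATA1TSS (0.63, SE 0.16, edgeR adjusted p = 0.0457; 1.53% of all genes tested were called). That call was lost in 16 of the 24 fits that left out 1 library and without GATA1TSS-Guide2 (0.09). MAGIX varied between the controls, with an SD of 34.9% of its mean over the 12, and had 11.7 to 27.4 CPM in the 8 and 21.9 to 41.1 CPM in the 4. Its change with GATA1TSS was -0.25 (edgeR adjusted p = 0.214) against 12 controls and -0.67 (edgeR adjusted p = 0.00161) against the 4, and that with eHDAC6 was 0.38 (edgeR adjusted p = 0.0376) against 12 and -0.05 against the 4. None of the 43 genes was called between eHDAC6-Guide2 and eHDAC6-Guide1 by edgeR (0.0152% of all genes tested), and DESeq2 called 0. None had an unadjusted p under 0.05 there, where the share of all genes was not taken. The libraries of 3 genes, RBM3, CACNA1F and PPP1R3F, did not overlap (11.7% of all genes tested).

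**Figure D2:**
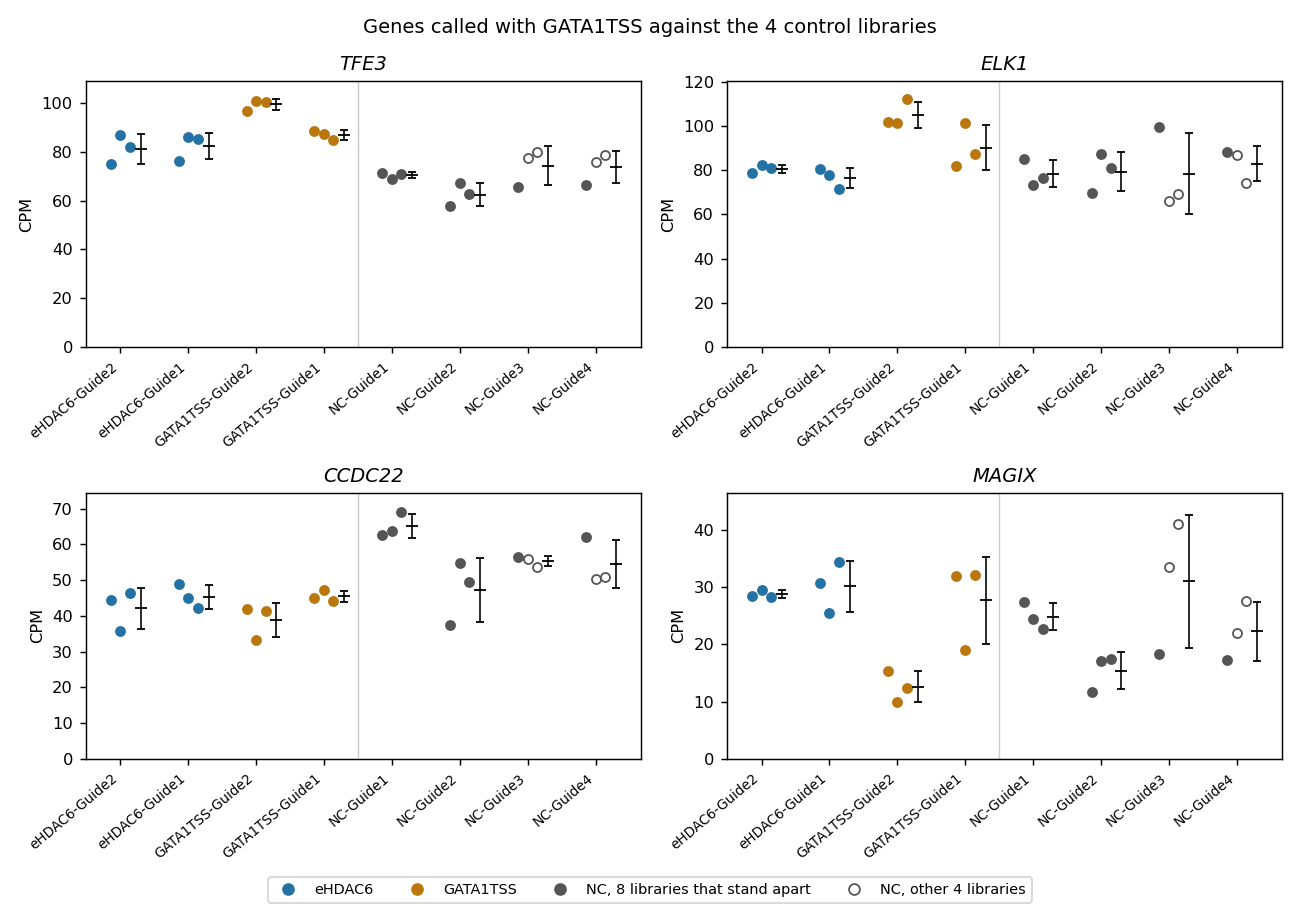
Level (CPM, vertical axes from 0) of TFE3, ELK1, CCDC22 and MAGIX in each library, grouped by sgRNA; black bars are the mean and SD of 3 replicates. All 6 GATA1TSS libraries of TFE3 (84.7 CPM and above) lie above every control, and the GATA1TSS-Guide2 and GATA1TSS-Guide1 libraries do not overlap for TFE3, CCDC22 and MAGIX. Such libraries did not overlap for 25.7% of all genes tested. Between these sgRNAs MAGIX was called, while TFE3 (edgeR adjusted p = 0.243) and CCDC22 (edgeR adjusted p = 0.392) were not.

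The remaining calls with 12 controls included genes whose levels differed among the NC sgRNAs or between the 8 and the 4 controls. NC-Guide3 and NC-Guide4 hold libraries of both sets, so a test among sgRNAs is not a test of the 8 against the 4. In the test for any difference among the 4 NC sgRNAs, 7 of the 43 genes were called (CFP, RBM3, KCND1, GPKOW, MAGIX, PLP2 and PRICKLE3), 16.3% beside 12.3% of all genes tested (edgeR, adjusted p under 0.05). This count depended on single libraries: without 1 library it ran from 0 to 12, with 0 when NC-Guide1 replicate 2, NC-Guide1 replicate 3, NC-Guide2 replicate 1 or NC-Guide4 replicate 2 was left out and 12 when NC-Guide3 replicate 1 was. Between the 8 and the 4 controls, the log2 difference of the locus genes ran from -1.16 (CFP) to 1.004 (SYP) with a median of -0.02, and 10 genes (23.3%) differed by more than 0.3, beside 28.0% of all genes tested. SYP was not called in the test among the NC sgRNAs (edgeR adjusted p = 0.335).

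PLP2, an endoplasmic reticulum membrane proteolipid gene, and PRICKLE3, a planar polarity gene that overlaps it on the other strand, start 383 and 396 kb from GATA1. PLP2 ran from 111 to 139 CPM with eHDAC6, from 98.3 to 131 CPM with GATA1TSS, from 53.5 to 98 CPM in the 8 controls and from 94.6 to 112 CPM in the 4. The targeted libraries were above all of the 8 controls and overlapped the 4. PLP2 rose by a log2 change of 0.55 with eHDAC6 (SE 0.09, edgeR adjusted p = 5.73e-05) and 0.42 with GATA1TSS (SE 0.09, edgeR adjusted p = 0.000736) with 12 controls, and had 0.25 (adjusted p = 0.0994) and 0.12 (adjusted p = 0.345) against the 4. PRICKLE3 rose by 0.46 and 0.34 in the same comparisons with 12 controls, and stood at 0.13 and 0.01 against the 4.

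CFP encodes properdin, which stabilises the alternative complement convertase, and had the largest log2 changes in the locus on 12 controls. It averaged 7.69 ± 1.19 CPM with eHDAC6 (SD, n = 6), 7.43 ± 2.08 CPM with GATA1TSS (n = 6), 2.93 ± 0.838 CPM in the 8 controls and 6.68 ± 1.91 CPM in the 4. Its change of 0.96 with eHDAC6 (SE 0.20, edgeR adjusted p = 0.000628) and 0.87 with GATA1TSS (SE 0.19, edgeR adjusted p = 0.00125) became 0.20 and 0.11 against the 4, neither called. RBM3, a cold-inducible RNA-binding protein gene 212 kb from GATA1, showed the opposite pattern, with 144 ± 9.36 CPM with eHDAC6, 149 ± 11.7 CPM with GATA1TSS, 187 ± 21.1 CPM in the 8 controls and 148 ± 12.1 CPM in the 4. It fell by 0.27 with eHDAC6 and by 0.21 with GATA1TSS on the log2 scale with 12 controls, and its values against the 4 were -0.04 and 0.02. SYP, the synaptophysin gene, fell by 0.74 and 0.59 with 12 controls at a mean of 3.03 CPM, and had 0.03 and 0.19 against the 4.

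**Figure D3:**
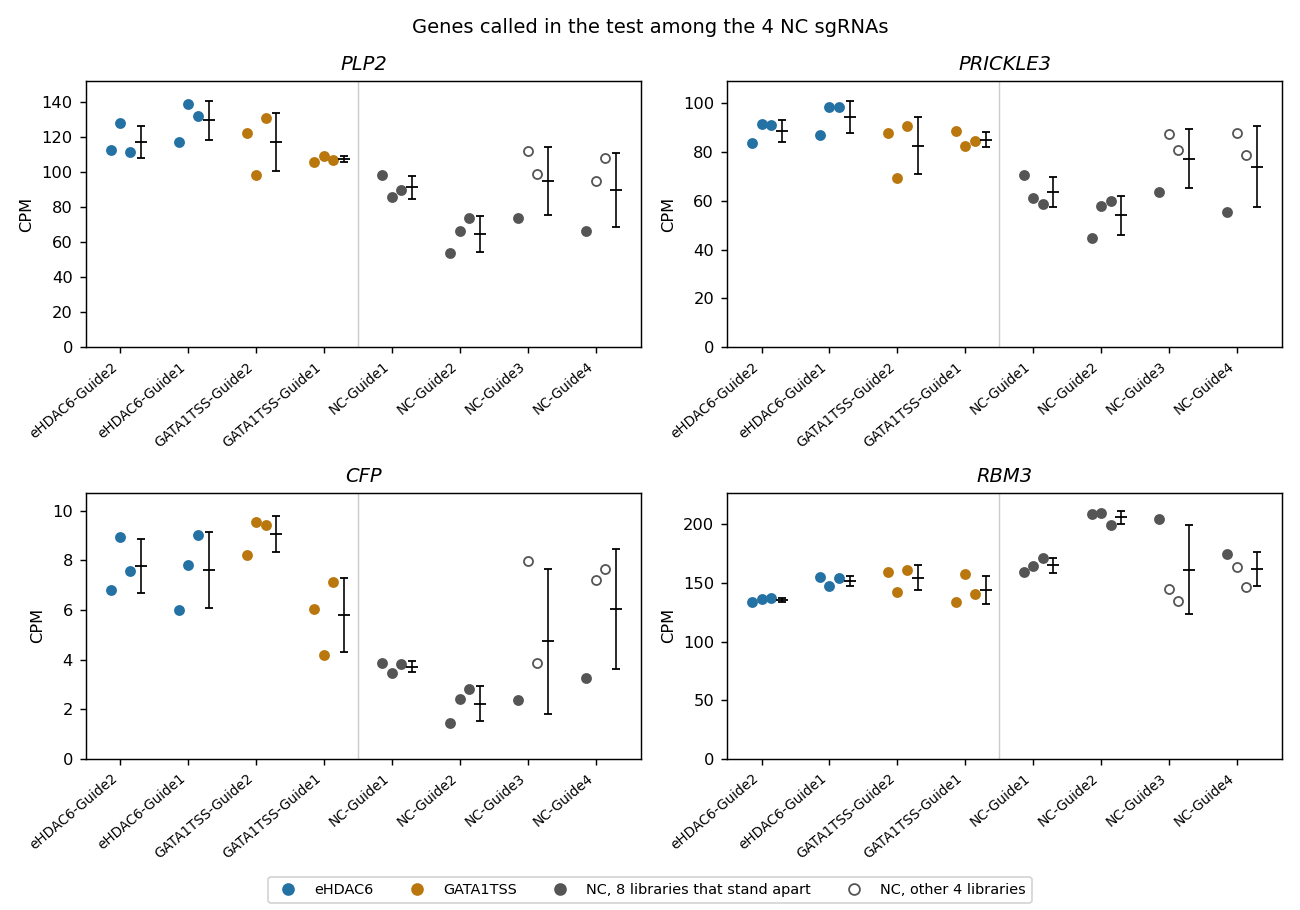
Level (CPM, vertical axes from 0) of PLP2, PRICKLE3, CFP and RBM3 in each library by sgRNA, with the 8 control libraries that stand apart filled and the other 4 open; black bars are the mean and SD of 3 replicates. For PRICKLE3, the 8 controls (mean 59.0 CPM) lie below the eHDAC6 libraries while the 4 (mean 83.7 CPM) overlap them, and for RBM3 the 8 average 187 CPM and the 4 average 148 CPM, with overlap.

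By role, 5 of 14 genes of membranes, trafficking and autophagy rose with eHDAC6 (KCND1, GRIPAP1, MAGIX, PLP2 and PRICKLE3) and 1 fell (SYP), beside 15.8% higher and 15.3% lower over the genome. With GATA1TSS 4 of the 14 rose (RP2, GRIPAP1, PLP2 and PRICKLE3) and 1 fell (SYP), beside 13.5% and 13.7% of all genes. Against the 4 controls none was called with eHDAC6, and with GATA1TSS MAGIX alone was, lower (5.39% of all genes tested). RP2, a retinitis pigmentosa gene whose product acts on a small GTPase of ciliary traffic, rose by 0.25 with GATA1TSS. GRIPAP1, an adaptor of recycling endosomes, rose by 0.18 with eHDAC6 and 0.19 with GATA1TSS. On the 4 controls RP2 had 0.17 with GATA1TSS and GRIPAP1 had 0.15 with each element, and neither was called.

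Among 6 genes of ubiquitin and proteolysis, UBA1, which charges ubiquitin at the head of the conjugation pathway, rose by 0.17 with eHDAC6 and 0.18 with GATA1TSS, and CCDC22 fell with both. Over all genes 15.8% were called higher and 15.3% lower with eHDAC6, and 13.5% and 13.7% with GATA1TSS. UBA1 averaged 428 ± 20.4 CPM with eHDAC6 (SD, n = 6), 429 ± 25.5 CPM with GATA1TSS (n = 6) and 379 ± 30.2 CPM in NC (n = 12), and its change against the 4 controls was 0.09 and 0.10, not called. The deubiquitinase genes USP11, OTUD5 and USP27X were not called with either element. OTUD5, the nearest of the 43 at higher coordinates (170 kb), stood at -0.06 with eHDAC6 (95% interval -0.16 to 0.03) and 0.08 with GATA1TSS (-0.02 to 0.17). The libraries of OTUD5 did not overlap between eHDAC6 and GATA1TSS, the 1 locus gene of which this held (1.31% of all genes tested), and those of OTUD5 and CCDC22 did not overlap between eHDAC6 and the 4 controls (3.88% of all genes tested).

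Of 5 genes of kinases and signalling, 3 rose with eHDAC6 (CDK16, ARAF and CFP) and 2 with GATA1TSS (ARAF and CFP), beside 15.8% and 13.5% of all genes, and none was called against the 4. CFP stands in this group as a complement protein and is not a kinase. ARAF, a kinase of the RAF family upstream of ERK, rose by 0.27 with eHDAC6 (SE 0.06, edgeR adjusted p = 0.00124) and by 0.16 with GATA1TSS (SE 0.06, edgeR adjusted p = 0.0474), and stood at 0.15 and 0.04 against the 4. Its call with GATA1TSS was lost in 17 of the 24 fits that left out 1 library. Of 4 genes of RNA binding and processing, GPKOW, a spliceosome protein gene, rose by 0.17 with eHDAC6 and 0.27 with GATA1TSS, while RBM3 fell with both. The shares of all genes called higher are those given above, and 15.3% were called lower with eHDAC6 and 13.7% with GATA1TSS. GPKOW, on the 4 controls, stood at -0.02 with eHDAC6 (edgeR adjusted p = 0.953) and at 0.08 with GATA1TSS (edgeR adjusted p = 0.566), and no gene of these 4 was called.

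Among 9 genes of transcription and chromatin, TFE3 rose and the zinc-finger gene ZNF41 fell by 0.35 with eHDAC6, and TFE3 and ELK1 rose with GATA1TSS. Over all genes 15.8% were called higher and 15.3% lower with eHDAC6, and 13.5% and 13.7% with GATA1TSS. ZNF41, on the 4 controls, stood at -0.23 with eHDAC6 (edgeR adjusted p = 0.37). There TFE3 and ELK1 alone of the 9 were called, both higher with GATA1TSS (4.84% of all genes tested). The exons of ZNF41 overlap the antisense RNA LINC01560. Neither gene of metabolism and mitochondria, NDUFB11 and EBP, was called, and no antisense or long noncoding RNA of the locus was. EBP, 265 kb from GATA1 at 177 CPM, stood at 0.00 with eHDAC6 (95% interval -0.10 to 0.11) and at 0.07 with GATA1TSS (-0.03 to 0.17).

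Distance from GATA1 did not order the changes in the same way with both sets of controls. With 12 controls, 2 of 6 genes up to 250 kb away rose and 1 fell with eHDAC6, 5 of 16 rose and 2 fell at 250 to 500 kb, none of 4 was called at 500 to 1000 kb, and 4 of 17 rose and 1 fell at 1000 to 2000 kb, beside 15.8% higher and 15.3% lower over the genome. With GATA1TSS, 1 rose and 1 fell of 6, 4 rose and 2 fell of 16, none of 4 was called, and 5 rose and 0 fell of 17 in the same steps, beside 13.5% higher and 13.7% lower over the genome. The steps hold few genes and their counts were not tested against each other. Against the 4 controls the calls with GATA1TSS were at 256 kb (TFE3), 374 kb (MAGIX), 447 kb (CCDC22) and 1135 kb (ELK1).

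Over the 43 genes, the Spearman correlation of the size of the log2 change with distance was -0.26 with eHDAC6 and -0.27 with GATA1TSS on 12 controls, and -0.01 and -0.01 on the 4. The genes share the same libraries and controls and differ in depth, so these are descriptions without a test. The size of the change also had a correlation of -0.21 (eHDAC6) and -0.17 (GATA1TSS) with the mean level. Of the calls with 12 controls, 5 of the 11 higher ones with eHDAC6 and 4 of the 10 with GATA1TSS came from the 13 genes at 250 to 500 kb on the higher side, where PLP2 and PRICKLE3 share overlapping exons. Those 13 genes also held 2 lower calls with each element on 12 controls. On the 4 controls they held 0 higher and 0 lower calls with eHDAC6. With GATA1TSS they held 1 higher (TFE3) and 2 lower (MAGIX and CCDC22), beside 4.84% and 5.39% of all genes tested.

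**Figure D4:**
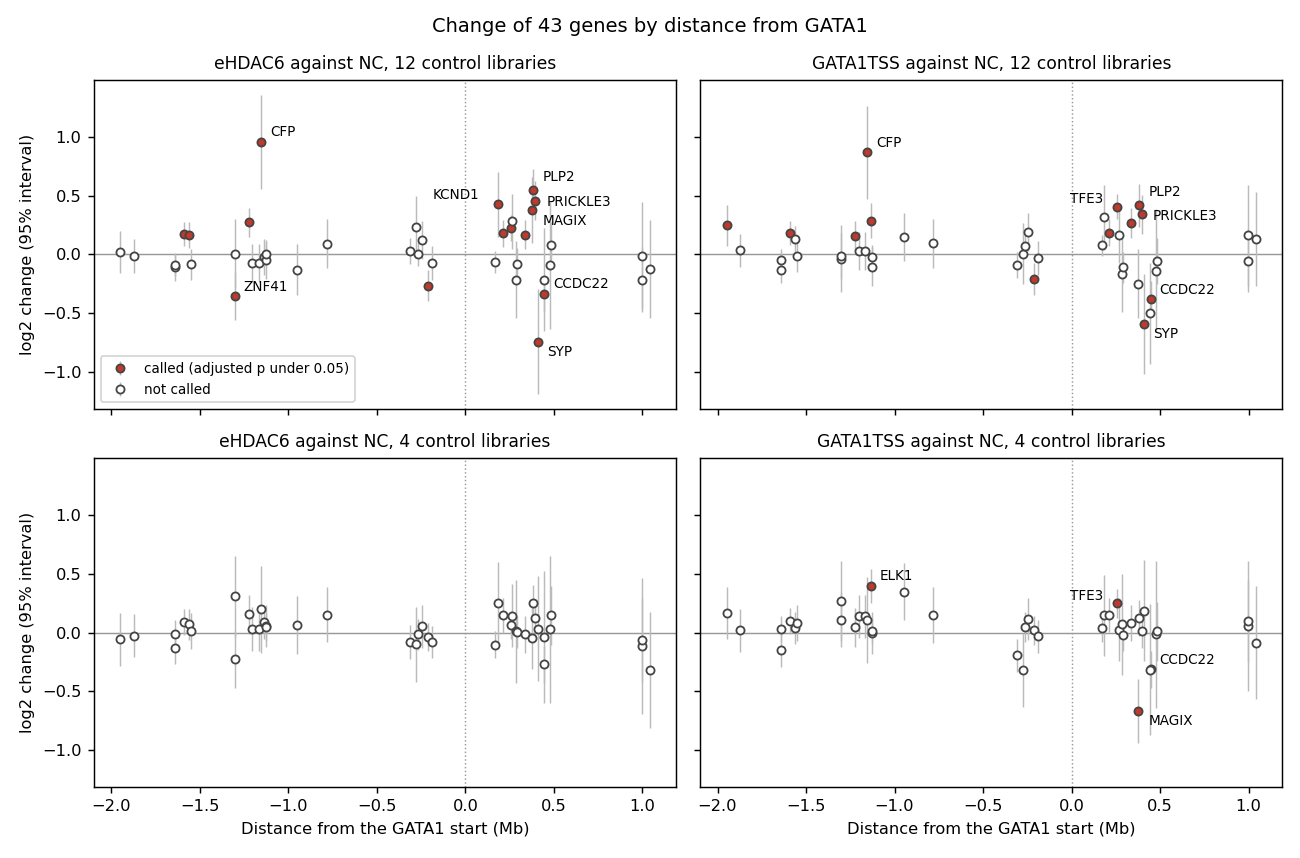
Log2 change (vertical axes, with 95% intervals) of the 43 genes against distance from the GATA1 start (Mb, negative at lower coordinates), with eHDAC6 on the left and GATA1TSS on the right, 12 controls above and 4 below. Filled points are called. With 12 controls, 3 of the 43 points in each panel lie more than 0.5 from 0, and the panel of eHDAC6 against the 4 controls holds no filled point.

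GATA1 fell by 0.52 with eHDAC6 and by 2.19 with GATA1TSS on the log2 scale with 12 controls. With eHDAC6 on 12 controls the changes of CFP, SYP and PLP2 were larger in size than that of GATA1, and with GATA1TSS none was. To set the falls beside that of GATA1, the lower end of the 95% interval was read. It lay above the change of GATA1 for 37 of 43 genes with eHDAC6 and for 43 of 43 with GATA1TSS, where the lowest change was -0.59. The change of GATA1 was taken as a fixed value, though its own interval with eHDAC6 ran from -0.655 to -0.377. The lower ends of some of the 37, such as CCDC22 (-0.489) and RBM3 (-0.401), lay inside that interval. Against the 4 controls these counts were 39 and 43, and the 4 genes whose interval reached the change of GATA1 with eHDAC6 (CACNA1F, FOXP3, USP27X-AS1 and CLCN5) had means under 5 CPM. The interval lay within 0.5 of 0 on the log2 scale for 31 genes with either element on 12 controls, and for 36 with eHDAC6 and 32 with GATA1TSS on the 4. Changes larger than 0.5 in size were seen for 3 genes (6.98%) with each element on 12 controls, where 10.9% of all genes tested with eHDAC6 and 10.6% with GATA1TSS had them.

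Taking each library by itself, the median log2 difference of the 43 genes from the NC mean ran from -0.03 to 0.05 in the 6 eHDAC6 libraries, from -0.04 to 0.12 in the 6 GATA1TSS libraries and from -0.22 to 0.09 in the 12 NC libraries. The lowest control value is that of NC-Guide2 replicate 1, and the next lowest was -0.05. GATA1TSS-Guide2 replicate 3, at 0.12, was above the highest control, and the other 11 targeted libraries lay within the range of the controls. Among the 43, the genes nearest to the limits of the window were WDR13 at -189 kb, OTUD5 at 170 kb, RP2 at -1949 kb and CLCN5 at 1042 kb; PIM2, left out by name, starts at 131 kb. Just outside the inner limit, WAS at -103 kb, the Wiskott-Aldrich regulator of actin in blood cells, had log2 changes of 0.69 with eHDAC6 and 0.90 with GATA1TSS (0.35 and 0.56 against the 4), and SLC35A2 at 124 kb had 0.08 and 0.09. Beyond 2 Mb, ZNF674-AS1 at -2240 kb had 0.00 and -0.15 and GSPT2 at 2841 kb had -0.32 and -0.12. Against the 4 controls SLC35A2 had -0.01 and 0.00, ZNF674-AS1 0.17 and 0.02 and GSPT2 -0.04 and 0.16. None of these genes was called on either set of controls.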

How the data were processed

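Polyadenylated RNA of 24 K562 libraries was sequenced in pairs on a strand-specific protocol, per the labels. Raw counts per gene symbol were deposited with the gene models used. The tools named in the submitters' processing notes, without their roles, are SAMtools 0.1.19, Picard, TopHat2 2.0.8 and Bowtie2 2.1.0, and the build is hg19. The counting tool is not given in the sources used here, nor is its use of strand. The SYN1 counts appear to hold reads of TIMP1, which lies on the other strand.

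Samples were grouped by sgRNA from their labels. Tests were run in R 4.3.3 with edgeR 4.0.16: TMM scaling (factors 0.951 to 1.03), the filter on low counts by sgRNA (minimum count 10, minimum total 15, proportion 0.7), and quasi-likelihood F tests with every sgRNA as its own coefficient in a single fit of the libraries. An element is the mean of its 2 sgRNAs and NC the mean of its 4, so an error between sgRNAs is not part of the test. P-values were adjusted (Benjamini-Hochberg) over all genes tested, and called means an adjusted p under 0.05. CPM are TMM-scaled. Depth limits the genes under 5 CPM most. The model was tested on simulated data first. Those data held no split of the controls and no differences among the NC sgRNAs. They therefore say nothing about calls that depend on the set of controls. Some marker genes are not reported here.

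The 43 genes, the role groups and the tests were chosen with earlier results of these data known. Any of the 43 could be named; values in every library are given for genes that were called with an element, moved the same way in 6 of 6 libraries and kept the call against the 4 controls, and for genes called between sgRNAs or elements. The controls were divided into 8 and 4 after their values were seen, by their scores on the first principal component (26.1% of the variance of the 2000 most variable genes, prior count 2). Alternatives were RLE scaling, no filter, a replicate block, DESeq2 1.42.0, counts summed per sgRNA, controls, sgRNAs or libraries left out, a mean of 5 CPM and a limit of 1 Mb.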

Additional observations from a re-analysis of the deposited data

Results flagged for a closer look

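KCND1, a voltage-gated potassium channel gene 183 kb from GATA1, had 5.01 CPM in replicate 2 of GATA1TSS-Guide2, well below the nearest of the other 5 GATA1TSS libraries at 8.36 CPM. That library had the lowest total of the series, 4290343 counts, and the part of depth in the value was not tested. It was the 1 group with such a library among 34 groups of 6 that were looked at, and chance gives about 1 in 20.

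MAGIX differed between the sgRNAs of the GATA1 start, with a log2 difference of -1.08 for GATA1TSS-Guide2 against GATA1TSS-Guide1 (edgeR adjusted p = 0.00854, lower in 3 of 3 libraries). It lost the call in 3 of 24 fits that left out 1 library (without GATA1TSS-Guide1 replicate 1 or GATA1TSS-Guide1 replicate 3 or GATA1TSS-Guide2 replicate 3), with adjusted p from 0.00117 to 0.0612, and kept it in all 5 other alternatives.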

How the results depend on the processing

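Most calls with all 12 controls depended on which controls were used. Without the 8 control libraries that stand apart, eHDAC6 gave 0 higher and 0 lower calls (11 and 4 as reported) and GATA1TSS gave 2 higher (10 as reported). In that fit the difference of eHDAC6 from GATA1TSS gave 2 lower (0 as reported), for which the share of all genes was not taken. The median change with eHDAC6 was 0.0273 there, and 0.028 without eHDAC6-Guide1 (-0.01 as reported). In the same setting 5 changes took the other sign: GPKOW (-0.0159), MAGIX (-0.0465) and SYP (0.0341) with eHDAC6, and RBM3 (0.0185) and SYP (0.19) with GATA1TSS. MAGIX with GATA1TSS was 0.29 without GATA1TSS-Guide2. The cause was not tested.

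With counts summed per sgRNA, which leaves 8 values in the fit, eHDAC6 had 0 higher and 0 lower, GATA1TSS 1 higher (TFE3) and 0 lower, and the difference of the elements 0 higher. Leaving out eHDAC6-Guide1 or eHDAC6-Guide2 gave 7 higher and 2 lower with eHDAC6, and leaving out GATA1TSS-Guide2 gave 4 higher with GATA1TSS. The higher call between the elements (1 as reported) was 0 without eHDAC6-Guide1, eHDAC6-Guide2 or GATA1TSS-Guide2, and lower calls were 2 without GATA1TSS-Guide1, 1 with no filter and 1 with DESeq2. DESeq2 called 4 genes among the NC sgRNAs (7 as reported). Among the alternative fits, the share of all genes called was taken only for the comparisons with NC without the 8 controls. The other counts are therefore not read as results about the locus. The limit of 1 Mb, which holds 26 of the genes, left 7 higher and 3 lower with eHDAC6 on 12 controls. With GATA1TSS it left 5 higher and 3 lower. Over all genes 15.8% were called higher and 15.3% lower with eHDAC6, and 13.5% and 13.7% with GATA1TSS. On the 4 controls it left 0 and 0 with eHDAC6 (0.899% and 0.587% of all genes). With GATA1TSS it left 1 higher and 2 lower there (4.84% and 5.39%).

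Leaving out 1 library at a time gave 7 to 12 higher and 4 lower with eHDAC6 (7 without eHDAC6-Guide1 replicate 1, eHDAC6-Guide1 replicate 3 or eHDAC6-Guide2 replicate 3), 8 to 11 higher and 2 to 4 lower with GATA1TSS, 0 to 1 in each direction between the elements, 0 to 1 lower between the GATA1TSS sgRNAs and 0 to 12 among the NC sgRNAs. The calls lost without 1 library were, with eHDAC6, those of CDK16 and GRIPAP1 (2 fits each), KCND1 (3), GPKOW (7) and MAGIX (9), and with GATA1TSS those of GRIPAP1 and RBM3 (without GATA1TSS-Guide1 replicate 1), UBA1 (without GATA1TSS-Guide2 replicate 3), RP2 (4 fits), SYP (6) and ARAF (17). The medians ran from -0.028 to 0.0215 (eHDAC6) and from 0.01 to 0.07 (GATA1TSS).

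The replicate block gave 11 higher and 4 lower with eHDAC6 and 9 higher and 3 lower with GATA1TSS. Replicate numbers did not pair the libraries in general: of 84 same-numbered pairs, 7 had correlated deviations over 0.1 (range -0.20 to 0.43). The highest was that of NC-Guide3 with NC-Guide4 at replicate 1, and their replicates 3 had 0.175. Within these sgRNAs the replicate number goes with the control split, as replicate 1 is in the 8 and replicates 2 and 3 are in the 4. Low counts limit the genes under 5 CPM, whose intervals are the widest.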
